A study of Mus musculus with 2 samples.

Results

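Heat shock protein and chaperone genes encode the proteins that fold other proteins and keep them from aggregating. They were taken as the array probes with exactly 1 gene symbol of the HSP, DNAJ, TRiC chaperonin, BAG, prefoldin and heat shock factor families. These were 76 of 14253 such probes and 73 of 13697 genes. The families were followed in mouse embryoid bodies, the round aggregates that embryonic stem (ES) cells form when they differentiate, of Elongin A-/- or Elongin A+/+ genotype. Both cultures received 2 µM retinoic acid, which drives ES cells towards neural fates, and both were collected at day 4. Elongin A is the transcriptionally active subunit of Elongin, which stimulates RNA polymerase II. There was 1 Applied Biosystems array for each genotype, so nothing below was tested, and the genotype cannot be told apart from the ES line, the culture or the array. The strain and the number of ES clones behind each genotype are not stated.

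HSP70 proteins bind exposed stretches of unfolded chains in cycles driven by ATP. J proteins bring them clients and trigger ATP hydrolysis, and HSP110 and BAG proteins release the nucleotide. HSP90 completes the folding of many signalling proteins, the ring-shaped chaperonins HSP60 and TRiC enclose a client, and small heat shock proteins hold unfolded chains without ATP. Heat shock factors switch on the inducible members through heat shock elements, while the unfolded protein response of the endoplasmic reticulum (ER) acts through ER stress elements.

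The 3 promoters below were chosen after the values were seen, to show the letters searched for in the ER chaperone genes. Hspa5, Hsp90b1 and Dnajc3 were the members whose promoter window held an ER stress element. Each stretch ends on the base before the annotated start, is written 5′ to 3′ on the strand of its gene, and comes from RefSeq (GRCm38.p6). Capitals mark the ER stress element.
Hspa5, chr2:34771870-34772089, plus strand: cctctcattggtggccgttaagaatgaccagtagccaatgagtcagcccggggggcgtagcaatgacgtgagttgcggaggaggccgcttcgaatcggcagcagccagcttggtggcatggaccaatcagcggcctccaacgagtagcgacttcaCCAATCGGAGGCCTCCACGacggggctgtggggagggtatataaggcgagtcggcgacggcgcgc
Hsp90b1, chr10:86705445-86705664, minus strand: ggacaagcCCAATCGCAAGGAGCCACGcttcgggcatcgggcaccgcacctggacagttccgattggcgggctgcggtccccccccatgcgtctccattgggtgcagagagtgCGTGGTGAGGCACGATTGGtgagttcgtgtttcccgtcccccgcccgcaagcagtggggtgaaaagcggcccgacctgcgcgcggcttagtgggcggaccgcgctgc
Dnajc3, chr14:118937712-118937931, plus strand: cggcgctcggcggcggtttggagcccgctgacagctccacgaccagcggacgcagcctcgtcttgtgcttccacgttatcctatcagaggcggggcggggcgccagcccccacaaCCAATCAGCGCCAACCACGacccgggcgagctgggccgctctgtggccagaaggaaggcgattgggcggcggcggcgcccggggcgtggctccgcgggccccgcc

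Hspd1 and Hspe1, which encode HSP60 and its lid HSP10, lie head to head, and 285 of the 300 bases of their promoter windows are the same DNA. Their shared heat shock element stands in capitals in the next stretch, the 30 bases around it on the Hspe1 strand.
Hspe1, chr1:55088053-55088082, plus strand: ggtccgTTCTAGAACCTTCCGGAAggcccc

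The heat shock element was searched as GAANNTTC, as TTCNNGAA and as a 3-unit form, GAA, TTC and GAA with 2 bases between neighbours, and the ER stress element as CCAAT and CCACG with 9 bases between. Both strands were searched, and each 3-unit match holds both 2-unit forms. Each window ran from 250 bases before to 50 bases after an annotated start. The table held 83 windows for 62 members and 32851 windows in all. GAANNTTC was present in 19.3% of member windows against 7.86% of all windows, and TTCNNGAA in 10.8% against 8.52%. The 3-unit form was in 7.23% against 0.603%, and belonged to Hspd1, Hspe1, Hsph1 and Dnajb6. In Hsph1 it read TTCTGGAAAGTTC and lay just past the start. The ER stress element was in 3.61% against 0.119%. These are shares of windows, not of separate sites. Hsph1 and Dnajb6 each held the same 3-unit site in overlapping windows, and Hspd1 and Hspe1 share theirs. All are matches of letters only, and no member was chosen by them.

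Chaperone genes were close on the arrays, and few differed by more than 2-fold. Values are intensities after quantile normalisation, and genes above the floor of 1.03, the array median, on 1 or both arrays count as measured. Of the 73 members, 61 were measured, 51 of them above the floor on both arrays. At least 2-fold higher on the Elongin A-/- array were 2 members (Dnajc11 and Dnajb5), where 6.76% of the 9568 measured genes were. At least 2-fold lower were 2 members (Dnajb3 and Hspb8), where 5.97% of all genes were. Counted in either direction this is 6.56% of the measured members, against 12.7% of all measured genes. At least 1.5-fold apart were 11 members against 30.6% of all genes, 6 of them higher (15.8% of all) and 5 lower (14.8% of all). Above the floor on both arrays 2 of 51 members were 2-fold apart, against 9.9% of all such genes. Among members with a geometric mean intensity of at least 16 none of 33 was 2-fold apart, against 3.63% of the 2949 genes at that level. The members' log2 differences, Elongin A-/- minus Elongin A+/+, had an SD of 0.39 over the 51 above the floor on both arrays, against 0.65 over the 7529 genes there.

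**Figure D1:**
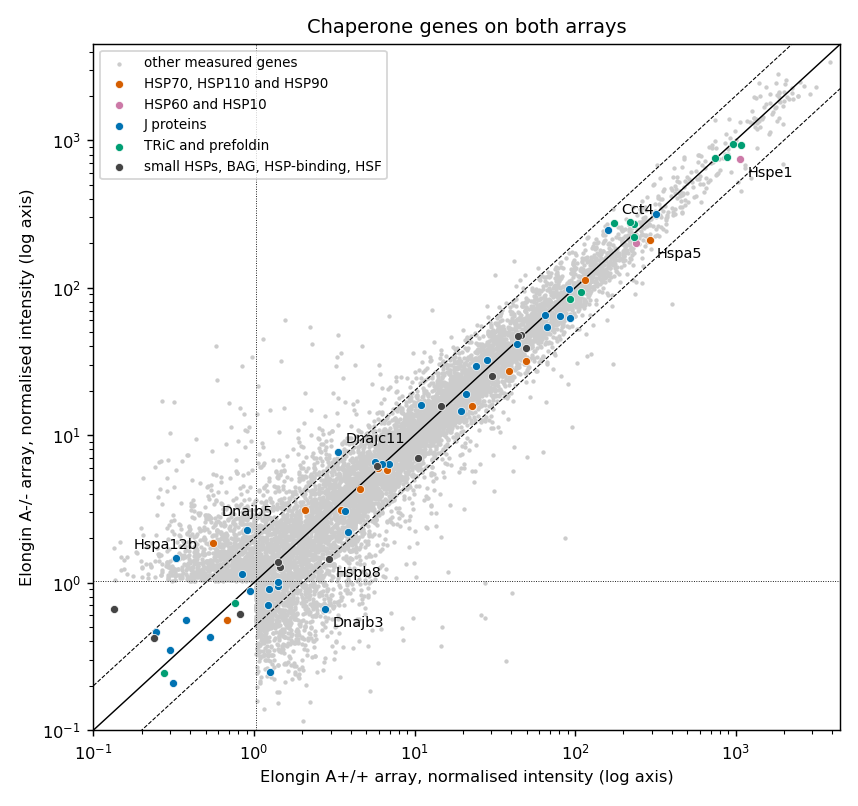
Normalised intensity of each gene on the Elongin A-/- array (vertical, log axis) and on the Elongin A+/+ array (horizontal, log axis), with chaperone genes coloured by family and other measured genes in grey. The solid line marks equality, dashed lines a 2-fold difference and dotted lines the floor of 1.03; axes begin at 0.1, and Dnajc11, Dnajb5, Dnajb3 and Hspb8 are the chaperone genes outside the dashed lines once values are held at the floor.

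The median log2 difference of the 61 members was -0.11, against -0.02 over all measured genes. By any margin 23 members were higher and 38 lower (37.7% higher), where 48.4% of all genes were higher and 51.6% lower. With the values as deposited, without quantile normalisation, the median was 0.01, and 31 members were higher and 30 lower, while the median of all genes was 0.07. Without replicates, the one error at hand comes from genes with several probes, whose log2 differences disagreed with an SD of 0.43 over 224 genes. The difference was smaller than that SD for 41 of the 61 members (67.2%), as it was for 56.9% of all measured genes. The probes of Hspd1 disagreed by less than that. Its brightest probe gave 202 on the Elongin A-/- array and 240 on the Elongin A+/+ array, while its other probes gave 89.8 against 81.6 and 24.1 against 22.2. They still differ in direction, and the mean over probes put the log2 difference at 0.00.

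**Figure D2:**
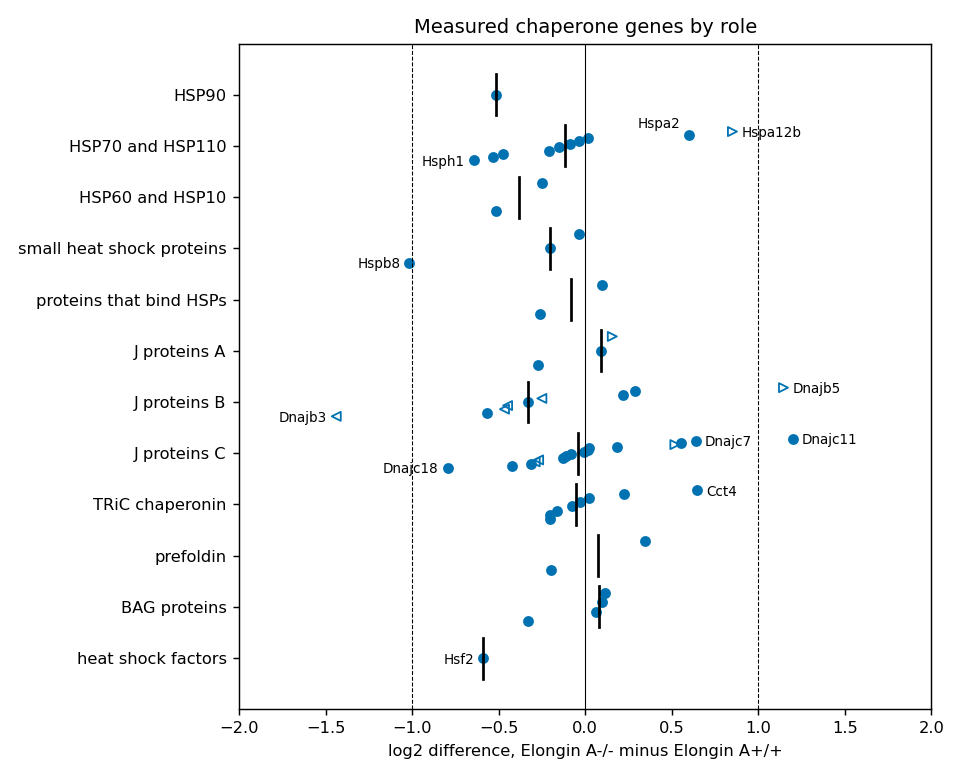
Log2 difference (Elongin A-/- minus Elongin A+/+) of the 61 measured members by role, with filled circles for members above the floor on both arrays, open triangles for bounds, a black bar for the median of a role and dashed lines at 2-fold. Members at least 1.5-fold apart are named, and Dnajb3 (-1.44) and Dnajc11 (1.20) lie furthest out.

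Of 10 measured HSP70 and HSP110 genes, 7 were lower on the Elongin A-/- array and 3 higher, with none 2-fold apart and a median of -0.12. With the values as deposited 4 were lower and 6 higher, with a median of 0.02. Over all measured genes, after normalisation, 51.6% were lower by any margin and 12.7% were 2-fold apart. Hsph1, the HSP110 that exchanges the nucleotide of HSP70, had 31.7 in Elongin A-/- bodies and 49.5 in Elongin A+/+ bodies, a log2 difference of -0.64. Hspa9, the mitochondrial HSP70 mortalin, had 15.8 against 22.9 (-0.53), and Hspa5, the ER HSP70 known as BiP, had 209 against 291 (-0.47). These were the 3 lowest of the family. Hspa4 and Hspa4l, relatives of HSP110, had 6.0 against 5.95 and 5.84 against 6.75. Hspa14, a ribosome-associated HSP70, had 113 against 116, the ER-resident Hspa13 3.12 against 3.46, and Hspa1l, known from testis, 4.34 against 4.61. Those 5 genes were within 1.16-fold of equality.

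Hspa12b and Hspa2 lay on the other side. Hspa12b, a divergent HSP70 relative known from endothelium, had 1.85 on the Elongin A-/- array and was below the floor (0.56) on the Elongin A+/+ array, at least 1.80-fold higher. Markers of blood and endothelium moved with it. Of 12 listed, 9 were measured and all 9 were at least 2-fold higher, their summed intensity over the 12 was 164 against 9.41, and Cdh5, Gata1 and Tie1 were below the floor on both arrays. Their part in the result was not tested, and in whole bodies fewer cells of a type and less RNA per cell cannot be told apart. Hspa2, a testis-enriched HSP70, had 3.13 against 2.06 (0.60). Germ cell and testis markers were mixed. Of 8 named, 4 were measured, with Prm2 (1.35 against 0.82) and Tnp1 (1.05 against 0.52) higher by less than 2-fold near the floor, and Dazl and Stra8 at least 2-fold lower. Their sum was 83.6 against 410, most of it Stra8 (77.5 against 403), with Ddx4, Mael, Prm1 and Sycp1 below the floor on both arrays, and their part in the value of Hspa2 was not tested. Hspa12a, the sister of Hspa12b, was also below the floor on both.

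ER chaperones were mostly lower. All 7 members on the array that were listed for this compartment were measured. Of these 6 were lower on the Elongin A-/- array, where 38 of all 61 measured members and 51.6% of all genes were lower. None was 2-fold lower, where 5.97% of all measured genes were. With the values as deposited 4 of the 7 were lower, since Hspa13 and Dnajc3 turned to 0.01 and 0.03. The median of -0.47 ranged from -0.49 to -0.31 over 12 other settings. The other 54 measured members had a median of -0.08. Hsp90b1, the ER HSP90 called GRP94, had 27.1 against 38.7 (-0.51). Dnajb11, a J protein that delivers clients to BiP, had 62.5 against 92.6 (-0.57). Hspa5, Hsp90b1 and Dnajb11 lay between 1.39-fold and 1.48-fold lower, a little beyond the probe SD of 0.43. Other ER genes given here and below spread more widely, with Hyou1 at -0.97, Dnajc1 at 0.18 and Sdf2 at 0.92. Dnajb9, another BiP cofactor, was below the floor in Elongin A-/- bodies (0.95, against 1.42), at least 1.38-fold lower. Dnajc3, an ER J protein that limits the translational arm of the stress response, had 6.42 against 6.93 (-0.11). Dnajc1, a J protein of the ER membrane, was the member on the other side, with 32.2 against 28.3 (0.18). Of the genes with an ER stress element in their window, Hspa5 and Hsp90b1 were lower under every setting that measured them, and Dnajc3 lay inside the probe SD of 0.43 and turned to 0.03 with the values as deposited.

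Other genes of ER folding and the unfolded protein response did not move as one. Of 37 named on the array 33 were measured, with a median of -0.08. At least 2-fold higher were 2 of these and none was 2-fold lower, with 16 higher and 17 lower by any margin. The same counts, taken in that order over every measured gene, came to 6.76%, 5.97%, 48.4% and 51.6%. Sec61b, a subunit of the translocation channel, had 74.8 against 28.5 (2.63-fold higher), and Serpinh1, the collagen chaperone HSP47, had 39.4 against 17.4 (2.26-fold higher). Hyou1, an HSP110 relative of the ER, had 1.11 against 2.17 (-0.97) near the floor, and Sdf2, an ER partner of Dnajb11, 56.2 against 29.8 (0.92) and lies on chromosome 11. The measured transcription factors of the list, looked at after the values were seen, went both ways. Atf4, of the integrated stress response, had 56.9 against 84.1, and Ddit3, the CHOP gene downstream of it, had 4.63 against 4.55. Xbp1, which acts downstream of the sensor IRE1, had 33.6 against 18.9 and lies on chromosome 11, whose genes were higher as a whole. Atf6b, a relative of the sensor ATF6, had 14.5 against 12.7.

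**Figure D3:**
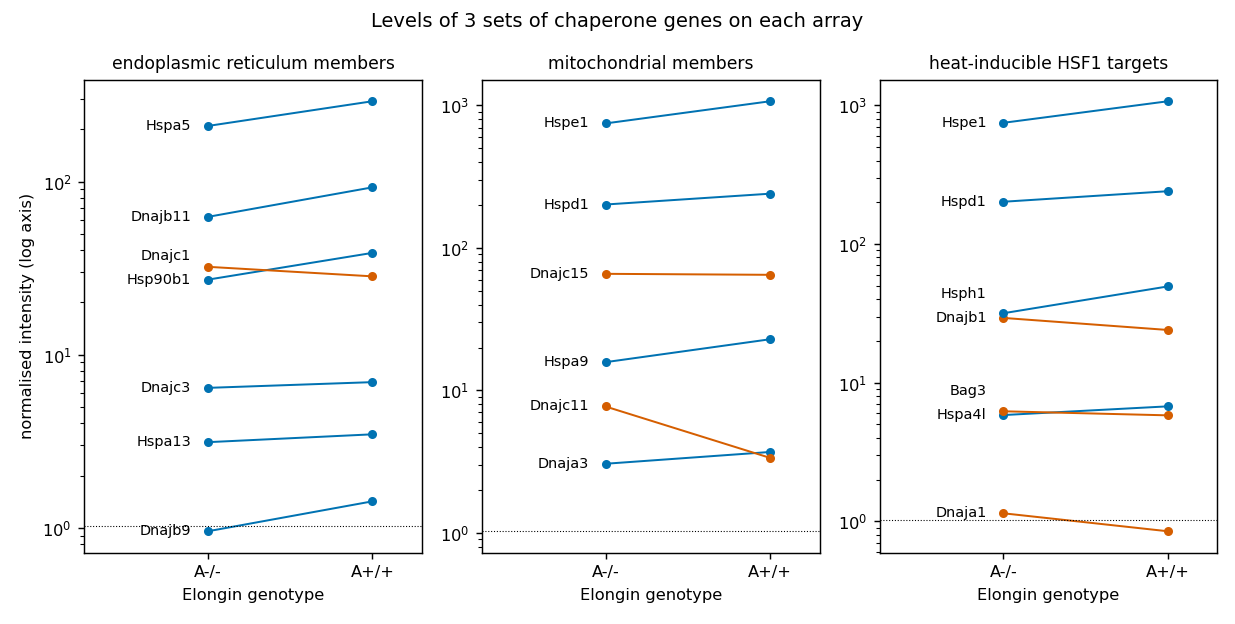
Normalised intensity (log axis) of the ER members, the mitochondrial members and the heat-inducible targets of HSF1, with the Elongin A-/- array left of the Elongin A+/+ array and a line for each gene, blue where it was lower and orange where it was higher in Elongin A-/- bodies. The dotted line is the floor of 1.03. Lower were 6 of 7 ER genes (4 of 7 with the values as deposited), 4 of 6 mitochondrial genes and 4 of 7 heat-inducible genes. With the mean over probes, where Hspd1 turned, 3 of 6 mitochondrial genes and 3 of 7 heat-inducible genes were lower. With chromosome medians removed 5 of 7 heat-inducible genes were lower.

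Mitochondrial chaperones split, with 4 of 6 lower (3 of 6 with the mean over probes), 1 at least 2-fold higher and a median of -0.26. Over all measured genes 51.6% were lower by any margin and 6.76% were at least 2-fold higher. Hspe1, the HSP10 lid, had 748 against 1070.5 (-0.52), and Hspd1, its HSP60 partner, is given above. Dnaja3, a J protein of Hspa9, had 3.06 against 3.70. Dnajc15, a J protein of the inner membrane, had 65.8 against 64.8. Dnajc11, a J protein linked to the cristae-forming complex, had 7.71 in Elongin A-/- bodies and 3.36 in Elongin A+/+ bodies, 2.30-fold higher, the widest difference among members above the floor on both arrays. Its log2 difference was 1.20. Once the floor was raised to the 75th percentile, its Elongin A+/+ value was held at the floor, which left a bound of at least 0.57. Of 15 other measured genes of mitochondrial folding and import, 2 were 2-fold higher, where 6.76% of all measured genes were. None was 2-fold lower, where 5.97% of all were, and the median was 0.00. The 2 higher ones were the membrane protease genes Afg3l1 (22.9 against 9.60) and Spg7 (23.6 against 11.6). Both lie on chromosome 8, whose genes were higher as a whole.

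Heat-inducible targets of HSF1 did not share a direction. Of 7 listed members on the array 3 were higher and 4 lower, with a median of -0.21. With the mean over probes 4 were higher and 3 lower, with a median of 0.00. With chromosome medians removed 2 were higher and 5 lower. Among the 4 with a geometric mean intensity of at least 16, 1 was higher and 3 lower. Dnajb1, the main inducible partner of cytosolic HSP70, had 29.3 against 24 (0.29), while Hsph1, inducible too, was lower. Dnajb1 lies on chromosome 8 and was at -0.14 with the chromosome median removed. Bag3, an inducible nucleotide exchange factor of selective autophagy, had 6.22 against 5.81, and Dnaja1, a cytosolic J protein, had 1.14 against a value below the floor (0.85). The 4 genes with the 3-unit heat shock element in a window (Hsph1, Hspe1, Hspd1 and Dnajb6) were lower at their chosen probes, by 1.19-fold to 1.56-fold. Hspd1 was level with the mean over probes, and it shares the element with Hspe1. By any margin 38 of the 61 measured members and 51.6% of all genes were lower. Among measured members with a 2-unit form only, Bag3, Dnaja1 and Cct6a were higher. Cct2, Cct5, Dnajb4, Dnajc27, Dnajc5g, Hspb6 and Hspb8 were lower. The 3-unit form was added after the values were seen. Of 12 other measured heat shock response genes 1 was 2-fold higher, where 6.76% of all measured genes were. None was 2-fold lower, where 5.97% of all were, and the median was 0.03 (-0.06 without chromosomes 6, 8 and 11). The higher one was Tcp11 (8.29 against 1.14), known from testis and sperm rather than as a chaperone. The inducible Hmox1, heme oxygenase, had 20.5 against 14.5 and lies on chromosome 8, whose genes were higher as a whole. Zfand2a, a heat shock target, had 12.8 against 19.0. Hsf2, a heat shock factor of development, had 7.0 against 10.5 (-0.59), and Hsf4, the lens factor, was below the floor on both arrays. Hsp90aa1, Hsp90ab1, Hspa1a, Hspa1b, Hspa8, Hspb1 and Hsf1 were not analysed here.

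J proteins, the largest family, held 28 of the 61 measured members and 3 of the 4 that were 2-fold apart. These 3 of 28 stand beside 12.7% of all measured genes. Of 34 genes 28 were measured, 12 higher and 16 lower, with a median of -0.10. As deposited, the values put 15 higher and 13 lower. By class the median was 0.09 for class A, which was -0.26 with chromosome medians removed, -0.33 for class B, which was -0.06 over its 4 members above the floor on both arrays, and -0.04 for class C, which was 0.05 with the values as deposited. Dnajb5, an HSP40 of the B class, had 2.27 on the Elongin A-/- array and was below the floor (0.91) on the Elongin A+/+ array, at least 2.21-fold higher. Dnajb3, a J protein of spermatids, was below the floor (0.67) in Elongin A-/- bodies and had 2.78 in Elongin A+/+ bodies, at least 2.71-fold lower. Both genes stood less than 3-fold above the floor on the array that measured them. Dnajc18 had 2.21 against 3.83 (-0.79). Dnajc7, a J protein that joins HSP70 to HSP90, had 248 against 159 (0.64), and Dnajc4 had 16.1 against 11 (0.55).

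The remaining measured J proteins lay within 1.5-fold, with values under the floor taken at it. Dnajb6, which holds back aggregation, had 63.8 against 80.3, and Dnajb2, enriched in neurons, 6.61 against 5.69. Dnaja2, a cytosolic partner of HSP70, had 97.8 against 91.8. Dnajc5, the synaptic vesicle chaperone CSP alpha, had 14.5 against 19.5 at its brighter probe and 2.41 against 2.07 at its other, so its probes also differ in direction. Dnajc8, which associates with spliceosomes, had 53.8 against 66.9. Dnajc24, an enzyme cofactor of diphthamide synthesis, had 41.4 against 43.8, Dnajc12, a cochaperone of aromatic amino acid hydroxylases, 19.1 against 20.8, and Dnajc27, a RAB-like GTPase with a J domain, 317 against 318. Dnajc14 had 6.36 against 6.28. Those last 4 were nearly level between the arrays. Dnajb4 (1.01 against 1.4), Dnajb7 (0.71 against 1.22), the histone chaperone Dnajc9 (0.91 against 1.24) and Dnajc5g (0.25 against 1.25) were above the floor on the Elongin A+/+ array only, and Dnajc28 (1.47 against 0.33) on the Elongin A-/- array only. Dnaja4, Dnajb8, Dnajb13, Dnajc5b, Dnajc6 (auxilin, which uncoats clathrin vesicles) and Dnajc16 were below the floor on both arrays.

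The TRiC chaperonin, the cytosolic ring that folds actin and tubulin, was nearly level in 7 of its 8 subunits. All 8 subunits of the ring were above the floor on both arrays, 3 higher and 5 lower with a median of -0.05, or 4 and 4 with a median of 0.04 with the values as deposited. Lowest in the log2 difference were Cct2, with 933 against 1076, and Cct5, with 765 against 882. Tcp1, the first subunit described, had 83.5 against 93.5. Cct3 (944 against 964), Cct6a (754 against 744) and Cct8 (222 against 234) were closest to level, and Cct7 had 271 against 232. These 7 subunits lay within 1.17-fold of equality. Cct4 had 273 in Elongin A-/- bodies and 175 in Elongin A+/+ bodies (0.65), 1.57-fold higher. The related genes Cct6b, known from testis, and Cct8l1 were below the floor on both arrays. Prefoldin, which passes nascent actin and tubulin to TRiC, was represented among the members by Pfdn1 (94.3 against 108) and Pfdn2 (279 against 220). With values under the floor taken at it, none of 18 other measured genes of chaperonin and tubulin folding was 2-fold apart. The share over all measured genes was 12.7%. These 18 had a median of -0.07 (0.01 with chromosome medians removed). Furthest apart was Pdcl3, a phosducin-like TRiC partner, below the floor (0.11) against 2.03 and so at least 1.97-fold lower. Next were the tubulin cofactors Tbcc (31.5 against 60.4) and Tbcd (21.8 against 12.4), and Rpap3, a cochaperone of polymerase assembly (6.22 against 10.7). Tbcd lies on chromosome 11, whose genes were higher as a whole.

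Chromosome of origin moved with several of these values. Over all measured genes the median log2 difference was 0.43 on chromosome 8 and 0.41 on chromosome 11, against -0.26 to 0.00 on the other autosomes and on the X chromosome. The 5 measured members on chromosomes 8 and 11 were Dnaja2, Dnajb1, Hspa4, Cct4 and Dnajc7. All 5 were higher, with a median of 0.29, whereas the 56 members elsewhere had 18 higher and 38 lower and a median of -0.16. After the chromosome median was subtracted, Cct4 and Dnajc7 were at 0.23 each, Dnajb1 at -0.14, Dnaja2 at -0.34 and Hspa4 at -0.40. The ER set, which has no measured member on either chromosome, had a median of -0.38 after the same step. The part of chromosome of origin in the members' values was not tested.

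**Figure D4:**
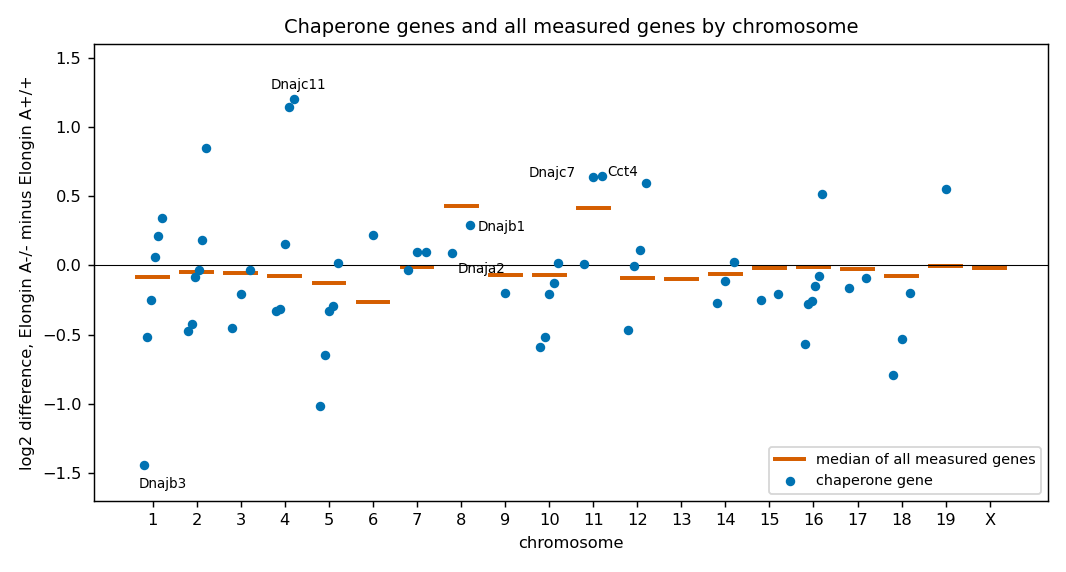
Log2 difference (Elongin A-/- minus Elongin A+/+, vertical) of each measured chaperone gene (blue points) by chromosome, with the median of all measured genes of that chromosome as an orange bar. The bars of chromosomes 8 (0.43) and 11 (0.41) stand above the others, and Cct4 and Dnajc7 lie above the bar of chromosome 11.

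Small heat shock proteins were near the floor. Hspb8, which works with Bag3 to clear misfolded proteins, had 1.45 against 2.93 (-1.02), 2.02-fold lower, and was the 1 of 3 measured small heat shock protein genes at that size. With the values as deposited, and with chromosome medians removed, it was under 2-fold. Of all measured genes 5.97% were at least 2-fold lower. Hspb2 (1.27 against 1.46) and Hspb6 (1.38 against 1.42), both known from muscle, were close, and the muscle genes Hspb3 and Hspb7 were below the floor on both arrays. Of 12 muscle markers listed, 5 were measured. Acta1, Actc1 and Tagln were at least 2-fold lower, Acta2 was at -0.03 (a bound), and Myl4 was higher (1.70 against 0.75). The sum was 16.9 against 56.0, most of it Tagln (8.29 against 41.4), and Cnn1, Des, Myl7, Myod1, Myog, Tnni1 and Tnnt2 were below the floor on both arrays. Their part in the value of Hspb8 was not tested.

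BAG proteins, HSP-binding proteins and the other listed cochaperones of HSP90 and HSP70 showed no 2-fold difference. Over all genes above the floor on both arrays, as all measured in these groups were, 9.9% were 2-fold apart. The share was 3.63% over genes with a geometric mean intensity of at least 16. J proteins, which are cochaperones too, are given above. Bag1, a nucleotide exchange factor that links HSP70 to the proteasome, had 39.2 against 49.3 (-0.33), while Bag2, which restrains a chaperone-linked ubiquitin ligase, had 48.1 against 46.0, and Bag5 15.7 against 14.6. Hspbp1, another exchange factor, had 47.3 against 44.2, and Hspbap1, a partner of HSP27, 25.3 against 30.3. Of 19 other measured cochaperones of HSP90 and HSP70 none was 2-fold apart in either direction, 10 were higher and 9 lower, and their median was 0.00 (-0.18 to 0.11 over 12 other settings). Fkbp8 on chromosome 8 (10.8 against 6.80) and Fnip1 on chromosome 11 (6.19 against 4.12) were furthest higher. Chordc1, a heat-inducible HSP90 partner, had 32.5 against 46.2, and Tomm34, which carries precursors to mitochondria, 45.2 against 62.4.

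Over the whole arrays, Eloa, the gene of Elongin A, had 3.57 in Elongin A-/- bodies and 3.87 in Elongin A+/+ bodies. Where its probe lies relative to the deleted part is not stated, so it checks nothing about the labels. Neural progenitor and neuronal markers were present on both arrays, with 10 of 11 named markers measured and Map2 below the floor. Their median log2 difference was -0.71, and the 11 summed to 280 in Elongin A-/- bodies against 401. Dcx (a bound) and Pax6 were higher in Elongin A-/- bodies, and every other measured marker was lower by some margin. The drop reached 2-fold for 3 of them, Neurog2, Sox1 (a bound) and Stmn2, and no marker rose that far. Of the ciliated cell markers 5 of 6 were measured, with 3 higher, 2 lower, a median of 0.22 and Dnah5 below the floor. Their sum was 8.97 against 12.3, and the single marker 2-fold lower was Spag6 (0.72 against 4.52).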

How the data were processed

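Probe intensities were taken as the authors deposited them, on a linear scale with medians of 1.03 (Elongin A-/-) and 1.02 (Elongin A+/+). How the authors normalized the deposited intensity values or corrected their background is unstated (not given in the sources used here). Per the labels, RNA was copied into digoxigenin-labelled cRNA for chemiluminescent detection. Log2 values were quantile normalised with numpy 2.4.6, because quartiles of the arrays differed by over 0.1. Values under the floor of 1.03 were set to it, so a difference with 1 array there is a bound. A gene was its probe with the highest mean log2 value. Probes were named from the platform annotation, and all 76 member probes had the same symbol in RefSeq (GRCm38.p6), which gave chromosomes and promoters.

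With 1 array for each genotype there was no test and no p-value, and counts at a fixed fold stand beside those of all genes. Precision is limited by the number of arrays. The steps were tested on simulated data. Members, lists and roles were chosen with earlier results of these data known. Every member could be named, and of other lists the genes 2-fold apart and up to 4 furthest apart, with the transcription factors of the ER list added after the values were seen. Alternatives covered scaling, floor, probe choice, fold and chromosomes.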

Additional observations from a re-analysis of the deposited data

How the results depend on the processing

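No paired analysis was possible because each genotype has 1 array. The 4 members at least 2-fold apart (2 higher, 2 lower) became 7 (4 higher) without a floor, or with it at the 25th percentile, where Dnajc28, Hspa12b and Dnajc5g joined them. They became 0 (0 higher, 0 lower) once the floor was raised to the 75th percentile, and among genes with a geometric mean intensity of 16 or more, a setting chosen after seeing the data. With a pseudocount equal to the floor 1 was left (0 higher, 1 lower, Dnajb3). With the values as deposited, and with chromosome medians removed, 1 was lower. At 1.5-fold there were 11 (6 higher, 5 lower) and at 3-fold 0. The members' median of -0.11 ran from -0.16 to 0.01, and was 0.0068 with the values as deposited. There 64.0% of all 2-fold genes were higher, against 53.1% after normalisation. Counts and medians kept within 1.5 times, or within their spread, in the other 32 cases of 54. Signal near the floor limits Dnajb3, Dnajb5 and Hspb8, and single probes carry 71 of 73 members.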
